A study of Mus musculus with 2 samples.

Results

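Posterior presomitic mesoderm cells carrying both T and Tbx6 transcripts were picked out of mouse somitic gastruloids profiled by single-cell RNA sequencing with and without degradation of Zeb2. Cell barcodes with at least 1000 genes detected and at most 10% mitochondrial unique molecular identifiers (UMIs) were kept. A cell was taken as a member when it held at least 1 UMI of T and at least 1 of Tbx6, and none of Foxa2, Meox1 or Zfp42. The cells were thus chosen by measured values, the raw UMIs of these 5 genes, and their levels are given below as description. The rule found 658 of 13826 cells, 511 of 6646 in the untreated library and 147 of 7180 in the dTAG-13 library. These cells are called T and Tbx6 cells here.

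The presomitic mesoderm is the unsegmented tissue at the tail end of the embryo from which somites, the precursors of vertebrae and trunk muscle, are cut off one after another. Its posterior part is fed by T-expressing progenitors that can also give rise to spinal cord, and entry into the mesodermal lineage goes with the T-box factor Tbx6 and its target Msgn1. WNT and FGF signals are high in the posterior part, and the Notch-linked oscillator that includes Hes7 and Lfng, the segmentation clock, runs through it. The zinc-finger protein Zeb2 represses transcription and is known to bind E-box sequences at epithelial genes during epithelial-to-mesenchymal transition.

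Gastruloids are small balls of embryonic stem cells that in culture develop tissues like those of an early embryo. Both groups came from the E14 triple reporter line, in which the endogenous Zeb2 protein carries an HA-FKBP12F36V tag. The small molecule dTAG-13 directs proteins with this tag to degradation. Both groups were seeded with 300 cells, received 3 µM CHIR99021, a WNT pathway activator, after 48 h and were embedded in 10% Matrigel at 96 h. The dTAG-13 group in addition received 100 nM dTAG-13 at 72 and 96 h. The control is labelled untreated, whereas the series text speaks of DMSO. About 32 gastruloids were pooled into 1 library per group, and the sources used here do not state when they were harvested. With 1 library per group no difference below has a replicate check and none was tested. All intervals are 95% intervals of counting error alone.

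The deposited files held 158002807 UMIs in 7276 barcodes for the untreated and 176677276 UMIs in 7873 barcodes for the dTAG-13 library. T and Tbx6 cells had a median of 21592 and 23358 UMIs and 4762 and 4924 genes, and their summed counts came to 12890735 and 3635327 UMIs. The libraries shared 14 barcodes, and 0 of these was a member in both. High doublet scores marked 37 untreated members (7.24%) and 10 dTAG-13 members (6.80%), against 6.16% and 6.85% of the other cells. The number of barcodes marked per library was set by an assumed doublet rate, so these shares are not measured doublet rates.

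T and Tbx6 cells made up a smaller share of the dTAG-13 library. They were 7.69% (exact binomial interval 7.06 to 8.36) of untreated and 2.05% (1.73 to 2.40) of dTAG-13 cells, a log2 ratio of -1.91 (-2.18 to -1.64). Both genes of the gate were detected in fewer dTAG-13 cells. T had a UMI in 37.6% and 26.3% of cells, and Tbx6 in 17.4% and 6.84%. Among cells with T, Tbx6 was found in 28.7% of untreated and 14.5% of dTAG-13 cells. The 3 exclusion genes removed unequal parts of the cells with both T and Tbx6, namely 28.6% of 716 untreated and 46.4% of 274 dTAG-13 cells. Foxa2, a notochord and endoderm factor, was present in 2.65% and 17.2% of these, Meox1, a somite factor, in 17.2% and 26.3%, and Zfp42, a pluripotency gene, in 12.3% and 20.8%. Before exclusion the shares were 10.8% and 3.82%, in the same direction.

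The neighbouring populations were gated by UMIs as well, and each gate also left out cells with Foxa2 or Zfp42. Cells with T and Sox2 but no Tbx6, the nearest to bipotent progenitors, were 12.9% of untreated and 7.95% of dTAG-13 cells. Cells with Tbx6 and either Mesp2 or Ripply2 but no T, called anterior cells here, were 0.858% and 0.474%. Cells with Meox1 and Tcf15 but no T, called somite cells here, were 10.4% and 5.89%. The T and Sox2 gate also left out cells with Meox1, and the anterior and somite gates could share cells. Every one of these gates held a smaller share in the dTAG-13 library, though the anterior intervals overlapped (0.650 to 1.11 and 0.328 to 0.661). Cells with Zfp42 but no T or Tbx6 held a larger share there, at 10.5% of untreated and 16.9% of dTAG-13 cells.

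**Figure D1:**
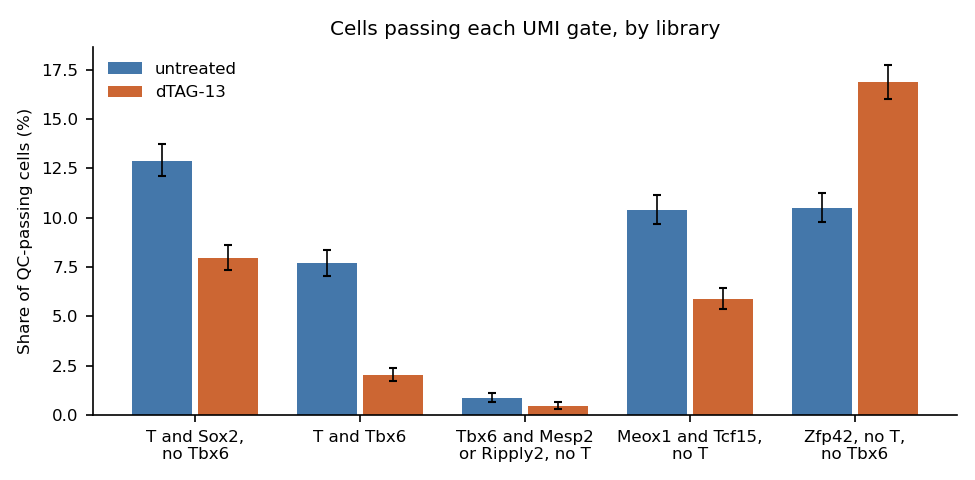
Share of QC-passing cells (%) that pass each UMI gate in the untreated and dTAG-13 libraries, with 95% exact binomial intervals as error bars. T and Tbx6 cells stand at 7.69% and 2.05%.

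The depth of the gate was similar in both libraries. Of the members, 62 untreated and 16 dTAG-13 cells held a single UMI of each gene, and 261 (51.1%) and 85 (57.8%) held a single Tbx6 UMI. Cells on either side of the threshold also held presomitic transcripts. Hes7 stood at 245 and 157 CPM (UMIs of a gene scaled to a common library total, untreated and dTAG-13) in the members with 1 UMI of each gene, at 143 and 96.2 CPM in cells with T but no Tbx6, and at 204 and 120 CPM in cells with Tbx6 but no T. Among the 181 and 41 members with at least 2 UMIs of each, it was 266 and 233 CPM.

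The given markers of posterior presomitic mesoderm were all detected, with Rspo3 the most and Msgn1 the least abundant. Rspo3, a secreted amplifier of WNT signalling, stood at 672 CPM (Poisson interval 658 to 687) in untreated and 632 CPM (607 to 659) in dTAG-13 members, against 162 and 111 CPM in all other cells. Hes7, the oscillating clock repressor, stood at 258 CPM (250 to 267) and 193 CPM (179 to 208), against 69.7 and 33.2 CPM in other cells. Dll1, a Notch ligand, stood at 152 CPM (145 to 158) and 103 CPM (92.7 to 114), against 31.9 and 15.6 CPM. All 3 were thus several times more abundant in members than in the summed counts of all other cells, in both libraries. Msgn1, a transcription factor downstream of Tbx6, was sparse at 5.28 CPM (4.10 to 6.69) and 3.85 CPM (2.11 to 6.46), and was seen in 10.8% and 6.80% of members. T and Tbx6 themselves, which chose the cells, stood at 157 and 172 CPM and at 80.6 and 74.3 CPM.

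The gate selects cells by 2 transcripts, so a difference from the rest of the library is a description. The comparison used 5894 genes with at least 20 CPM in the members of 1 library and 50 UMIs in the members of both. Of these, 1.99% exceeded the other cells by 1.5-fold or more in both libraries and 1.07% fell short of them by as much. Genes nearly absent from the members do not pass this minimum, so the share above and the share below cannot be compared. The 12 leading genes were the FGF ligands Fgf3 and Fgf4, the markers Dll1, Rspo3 and Hes7, the transcriptional regulators Cited1 and Ets2, the G-protein subunit gene Gnal, and Sprr2a3, Arl4d, Tmem114 and Rnf213. Fgf3 led with 60.0 and 64.9 CPM in members against 9.73 and 7.34 CPM in other cells, log2 ratios of 2.51 and 2.98. Sprr2a3, of a family with near-identical copies so that its counts are uncertain, stood at 38.0 and 96.3 CPM in members. It was the leading gene with the largest treatment difference, a log2 ratio of 1.32 (1.14 to 1.54).

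Rspo3 and Hes7 were highest in the T and Tbx6 cells among the gates, in both libraries. Dll1 was higher still in the anterior cells, at 236 and 152 CPM. Mesp2, which sets the border of the next somite, was 0.233 and 1.65 CPM in members and 131 and 82.9 CPM in anterior cells, which it helped to choose. Tcf15, a somite factor, was 8.22 and 7.43 CPM in members against 344 and 298 CPM in somite cells, whose gate required it. Aldh1a2, the enzyme that makes retinoic acid in anterior mesoderm and somites, was 30.1 and 51.2 CPM in members against 584 and 771 CPM in anterior cells. Ripply1, Meox1 and Pax1 had 0 UMIs in the members of both libraries, the second of these by the rule.

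**Figure D2:**
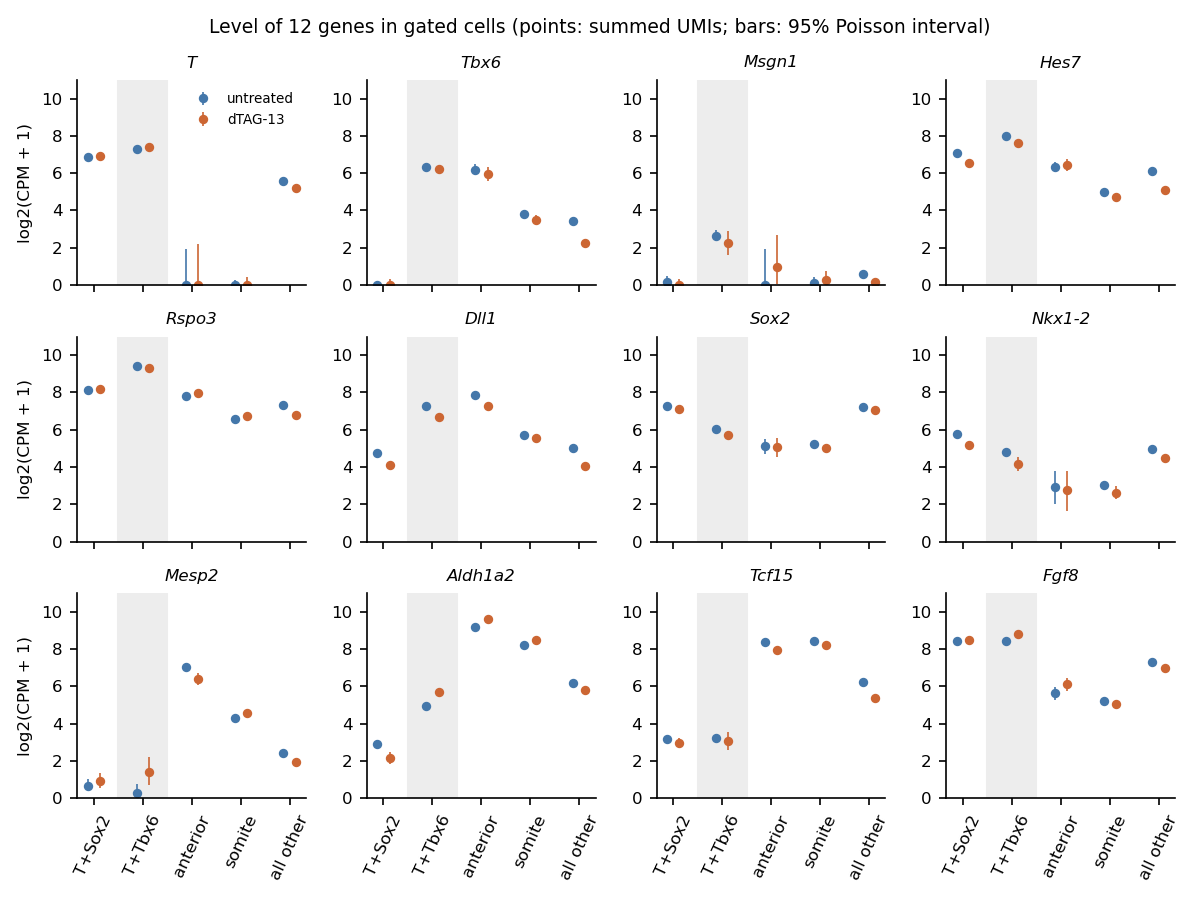
Level of 12 genes as log2(CPM + 1) in T and Sox2 cells, T and Tbx6 cells (shaded), anterior cells, somite cells and all other QC-passing cells, for the untreated and dTAG-13 libraries, with 95% Poisson intervals. Hes7 and Rspo3 are highest in the shaded gate, whereas Mesp2, Aldh1a2 and Tcf15 are highest in the anterior or somite cells, of which Mesp2 and Tcf15 are gate genes.

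Transcripts of progenitor genes were also present. Sox2, a factor of neural and progenitor cells, had a UMI in 223 of 511 untreated members (43.6%) and 64 of 147 dTAG-13 members (43.5%). In somite cells, where it should be low, the shares were 27.8% and 29.6%, at 37.4 and 31.5 CPM and median depths of 20869 and 21541 UMIs. After thinning to 5000 UMIs per cell, the shares were 17.5% (14.3 to 21.03) and 19.9% (13.7 to 27.3) in members and 9.48% (7.39 to 11.9) and 10.4% (7.66 to 13.7) in somite cells. The members thus stood above this background, with dTAG-13 intervals that nearly touch. The level of Sox2 in members was 65.5 and 52.5 CPM, against 151 and 136 CPM in the T and Sox2 cells, which it helped to choose. Nkx1-2, a progenitor homeobox gene, was 26.8 and 17.1 CPM in members and 53.8 and 35.5 CPM in T and Sox2 cells. Not every progenitor gene was lower in members. Wnt3a was higher in them in both libraries, at 25.8 against 14.2 CPM in the untreated library. A marker list of 10 progenitor genes, Sox2 among them, summed to 1190 and 1120 CPM in members. In T and Sox2 cells it summed to 1387 and 1194 CPM. Across single members, Rspo3 and Dll1 ran together, with a Spearman rho of 0.42 over 511 untreated and 0.41 over 147 dTAG-13 cells. The cells of each library share their sequencing run and vary in depth, so these coefficients are descriptive.

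Next, expression was compared between dTAG-13 and untreated members. Each ratio is the log2 of the CPM of summed UMIs with dTAG-13 over that without, after adding 1 CPM to both. Among the 5894 genes, 104 (1.76%) were higher and 34 (0.577%) lower with dTAG-13 by 1.5-fold or more, and the median ratio over all of them was 0.01. Intervals of ratios are exact and conditional on the summed counts, with no CPM added, so for low genes they can lie farther from 0 than the ratio.

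The Zeb2 transcript (chromosome 2, 44983632 to 45117395, minus strand, GRCm38) was 67.9 CPM (63.5 to 72.5) in untreated and 130 CPM (118 to 142) in dTAG-13 members, a log2 ratio of 0.92 (0.77 to 1.10). The labels cannot be checked by this transcript, because degradation takes place at the protein. In all other cells the ratio was 0.46, from 67.3 to 92.8 CPM. The members were therefore at the level of all other cells together without treatment and above them with dTAG-13. Zeb2 was also higher with dTAG-13 in the nearest gates. It was 101 and 156 CPM in anterior cells, 72.8 and 112 CPM in somite cells and 66.3 and 107 CPM in T and Sox2 cells.

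**Figure D3:**
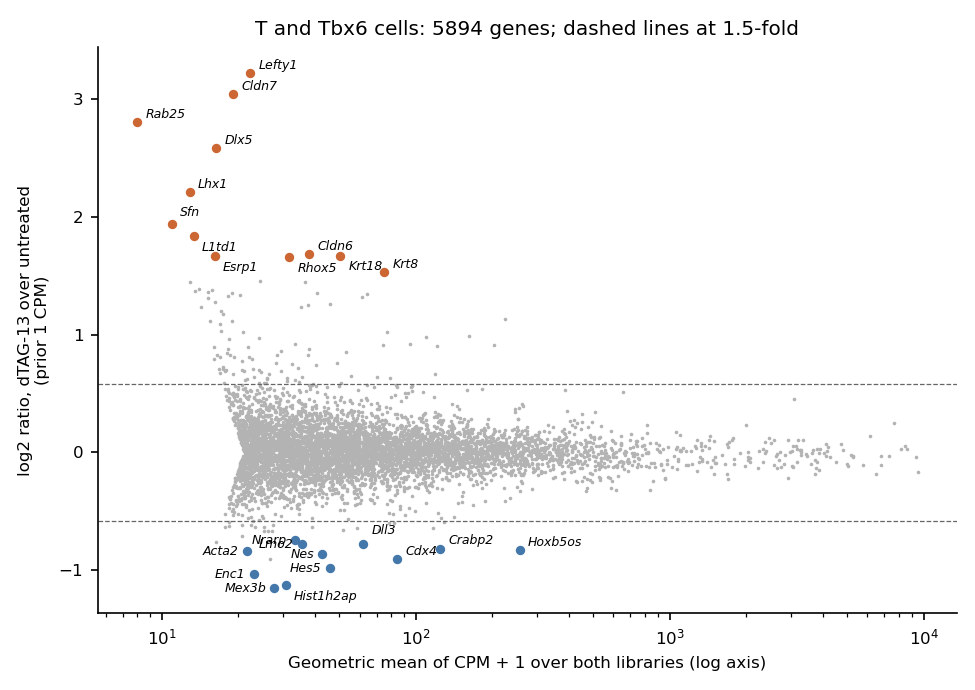
Log2 ratio of dTAG-13 over untreated in T and Tbx6 cells (prior 1 CPM) against the geometric mean of CPM + 1 on a log axis, for 5894 genes, with the 12 highest in orange and the 12 lowest in blue. Dashed lines mark 1.5-fold, and 7 of the 12 highest genes belong to the epithelial list.

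Epithelial genes made up most of the highest ratios. The 12 highest were Lefty1, Cldn7, Rab25, Dlx5, Lhx1, Sfn, L1td1, Cldn6, Krt18, Esrp1, Rhox5 and Krt8. Cldn7, a tight-junction claudin (chromosome 11, 69964779 to 69967885, plus strand), stood at 5.66 CPM (4.44 to 7.12) in untreated and 53.9 CPM (46.6 to 62.0) in dTAG-13 members, a ratio of 3.04 (2.86 to 3.66). Rab25, a small GTPase of epithelial membrane recycling (chromosome 3, 88542029 to 88548300, minus strand), went from 2.02 CPM (1.32 to 2.96) to 20.1 CPM (15.7 to 25.2), a ratio of 2.80 (2.65 to 4.02). Both genes were thus near the floor of detection in untreated members. The keratins that form the filaments of simple epithelia were measured at higher levels. Krt8 was 43.2 CPM (39.7 to 47.0) and 127 CPM (115 to 139), a ratio of 1.53 (1.37 to 1.73), and its partner Krt18 was 27.2 and 88.6 CPM, a ratio of 1.67 (1.48 to 1.93). Esrp1, the epithelial splicing regulator, was 8.07 and 27.8 CPM, a ratio of 1.67. Sfn, an epithelial 14-3-3 protein, was 4.58 and 20.4 CPM, a ratio of 1.94, and Dlx5, a homeobox gene of non-neural ectoderm, was 5.66 and 39.1 CPM, a ratio of 2.59.

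Of the 31 genes of the epithelial list, 30 had at least 10 UMIs over both libraries, and 23 of them were higher and 0 lower by 1.5-fold, with a median ratio of 1.29. Over all 13165 genes of at least 10 UMIs, 5.78% were higher and 3.71% lower, with a median of 0.02. The adhesion molecule Epcam was 150 and 331 CPM, a ratio of 1.14, and Cdh1, the epithelial cadherin, 11.8 and 21.5 CPM, a ratio of 0.81. Ap1m2, the epithelial sorting adaptor, had 0.388 and 7.43 CPM, a ratio of 2.60, and Crb3, an apical polarity protein, 2.56 and 15.1 CPM, a ratio of 2.18. Genes of the list below 1.5-fold included Lsr at 0.20, Grhl3 at 0.27, Ovol2 at -0.19 and Cdh3 at -0.34. In all other cells 27 genes of the list were higher (2.56% of the 13165 genes were higher there and 1.06% lower), with a median of 1.22, so the members were near the rest of the library in this measure.

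The epithelial difference was uneven over single members. The summed level of the 31 genes had a median of 305 CPM per untreated and 750 CPM per dTAG-13 cell, and the middle 50% of cells ran from 144 to 619 and from 241 to 1537 CPM. The distributions overlapped over most of their range. Cldn7 had a UMI in 47 of 511 untreated members (9.20%) and 60 of 147 dTAG-13 members (40.8%). In somite cells, where it should be low, the shares were 3.91% and 13%, at median depths of 20869 and 21541 UMIs. After each cell was thinned to 5000 UMIs, Cldn7 was found in 3.53% (2.10 to 5.52) of 510 untreated and 13.7% (8.57 to 20.4) of 146 dTAG-13 members, and in 0.583% and 4.49% of somite cells.

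Cldn7 went with Sox2 in the dTAG-13 members. Of the members with Sox2, 29 of 223 untreated cells (13%, 8.89 to 18.1) and 41 of 64 dTAG-13 cells (64.1%, 51.1 to 75.7) held Cldn7. Of the members without Sox2, the counts were 18 of 288 (6.25%, 3.75 to 9.70) and 19 of 83 (22.9%, 14.4 to 33.4). Depth moved with this split, since the Sox2 and Cldn7 cells had median depths of 36387 and 29927 UMIs, and its part in the result was not tested. The per-cell rho of Sox2 and Cldn7 was 0.12 in untreated and 0.41 in dTAG-13 members, and that of Epcam and Cldn7 0.34 and 0.69. Krt8 was 46.1 and 194 CPM in members with Sox2, and 40.1 and 63.3 CPM in those without. The T and Sox2 cells, which lack Tbx6, held Cldn7 in 19.6% of untreated and 65.5% of dTAG-13 cells. High Cldn7 shares with dTAG-13 were thus not particular to the members.

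Members without a Cldn7 UMI, 464 untreated and 87 dTAG-13 cells, were described too, although this split uses a gene that differed. Epcam was 128 and 133 CPM there, and Krt8 37.3 and 43.5 CPM. Id1 was 115 and 242 CPM, Zeb2 69.0 and 152 CPM, and Hes5 61.3 and 21.7 CPM, ratios of 1.07, 1.13 and -1.45, at least as far from 0 as the 0.99, 0.92 and -0.98 of all members. The ratios of Dll3, Nrarp, Dll1 and Vim were nearer 0 in these cells, at -0.33, -0.45, -0.28 and -0.40, against -0.78, -0.74, -0.55 and -0.65 in all members. Sox2 stood at 59.6 and 21.2 CPM in these cells, whereas over all members it was 65.5 and 52.5 CPM.

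**Figure D4:**
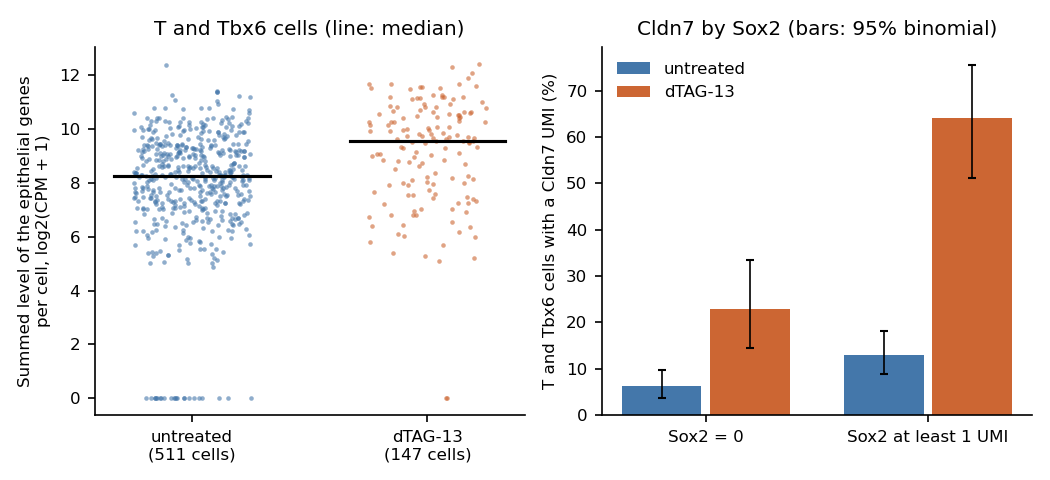
Left, summed level of 31 epithelial genes per T and Tbx6 cell as log2(CPM + 1), 1 point per cell, with the median as a line. Right, share of T and Tbx6 cells with a Cldn7 UMI among cells without and with Sox2, with 95% exact binomial intervals, which reach 64.1% in dTAG-13 cells with Sox2.

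Markers of other cell types were measured in the same cells. The non-neural ectoderm list summed to 78.7 CPM in untreated and 243 CPM in dTAG-13 members, with 2 and 6 of its 8 genes at 10 CPM or more. Its genes Krt8 and Grhl3 were at 43.2 and 127 CPM and at 12.4 and 15.1 CPM, Tfap2c and Dlx5 at 7.37 and 20.6 CPM and at 5.66 and 39.1 CPM, and Upk1a and Sfn at 4.96 and 17.9 CPM and at 4.58 and 20.4 CPM. The remaining factors Tfap2a and Dlx3 were at 0.155 and 0.825 CPM and at 0.310 and 2.48 CPM. The endoderm list summed to 260 and 627 CPM, almost all of it from Epcam, Krt8, Krt18 and Cldn6, while Sox17, its defining factor, had 0.233 and 0 CPM. In T and Sox2 cells the non-neural ectoderm list summed to 122 and 453 CPM and the endoderm list to 376 and 1085 CPM. In all other cells the sums were 133 and 388 CPM and 508 and 1131 CPM. Both lists were thus lower in members than in these sets, and lower still in anterior and somite cells. In members the pluripotent list summed to 25.2 and 55.8 CPM and the epiblast and primitive streak list to 37.9 and 95.5 CPM, with Pou5f1 at 13.7 and 39.3 CPM. The part of such cells in the epithelial result was not tested.

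Promoters were read for the E-box CACCTG, known as a binding sequence of Zeb proteins. They were counted for all genes, for the genes compared and for those higher or lower, and not for the epithelial list on its own. The window was the 250 bases upstream of each start in RefSeq (GRCm38.p6), and both strands were searched (CACCTG or CAGGTG). It occurred in 17.2% of 32851 promoters of 27025 genes, in 13.4% of 5966 promoters of the genes compared, in 27 of 103 promoters (26.2%) of the genes at least 1.5-fold higher, and in 4 of 25 (16.0%) of those lower. The stretches below are shown for 3 higher genes with the E-box in capitals, for Cldn7, whose first start has none, and for Hes5, a lower Notch target, with the motif TGGGAA or its complement TTCCCA in capitals. The Hes5 stretch also holds CACCTG, 1 match in lower case, although the gene was lower with dTAG-13. TGGGAA, a core of sites of the Notch effector Rbpj, occurred in 21.6% of all promoters, in 23.3% of those of higher genes and in 12% of those of lower genes. Bases annotated as untranslated were left off at the gene end. The stretches are chr3:88548301-88548529 (minus strand, 2 matches) for Rab25, chr4:133602169-133602418 (minus, 1) for Sfn, chr15:102027966-102028179 (plus, 1) for Krt18, chr11:69964529-69964778 (plus, 0) for Cldn7, and chr4:154960673-154960922 (plus, 2) for Hes5.
Rab25: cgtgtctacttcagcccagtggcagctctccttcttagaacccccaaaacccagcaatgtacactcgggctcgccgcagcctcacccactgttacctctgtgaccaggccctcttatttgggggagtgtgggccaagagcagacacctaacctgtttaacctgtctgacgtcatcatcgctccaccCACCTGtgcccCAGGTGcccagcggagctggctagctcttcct
Sfn: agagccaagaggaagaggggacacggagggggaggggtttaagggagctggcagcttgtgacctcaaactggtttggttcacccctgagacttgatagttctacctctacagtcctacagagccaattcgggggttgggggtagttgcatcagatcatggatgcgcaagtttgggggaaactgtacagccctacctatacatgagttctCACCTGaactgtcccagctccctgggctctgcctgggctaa
Krt18: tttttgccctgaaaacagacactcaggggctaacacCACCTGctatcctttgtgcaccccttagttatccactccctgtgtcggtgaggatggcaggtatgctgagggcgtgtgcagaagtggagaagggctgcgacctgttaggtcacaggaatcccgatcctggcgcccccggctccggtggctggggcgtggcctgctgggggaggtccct
Cldn7: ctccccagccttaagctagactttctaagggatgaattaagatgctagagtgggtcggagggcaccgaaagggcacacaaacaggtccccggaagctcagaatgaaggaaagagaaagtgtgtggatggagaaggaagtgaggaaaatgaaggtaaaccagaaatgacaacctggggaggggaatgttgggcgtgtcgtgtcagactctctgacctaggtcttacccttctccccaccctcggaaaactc
Hes5: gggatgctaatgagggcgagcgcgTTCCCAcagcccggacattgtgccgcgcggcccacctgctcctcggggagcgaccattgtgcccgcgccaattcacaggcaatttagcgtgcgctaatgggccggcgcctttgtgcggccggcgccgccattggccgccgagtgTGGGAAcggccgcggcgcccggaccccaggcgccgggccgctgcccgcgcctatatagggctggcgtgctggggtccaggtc
A match is a description of letters, and no binding was measured here. The absence of CACCTG from the Cldn7 stretch holds for this window alone.

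Several genes of the Notch pathway and the segmentation clock were lower. On that list 16 genes had at least 10 UMIs, of which 0 were higher and 6 lower by 1.5-fold (background 5.78% and 3.71%), with a median of -0.40. Hes5, a transcriptional target of Notch, was 63.3 CPM (59.0 to 67.8) in untreated and 31.6 CPM (26.1 to 38.0) in dTAG-13 members, a ratio of -0.98 (-1.30 to -0.72). Dll3, a divergent ligand that restrains Notch, was 80.1 CPM (75.3 to 85.2) and 46.2 CPM (39.5 to 53.8), a ratio of -0.78 (-1.04 to -0.56). For both genes the intervals of the levels lay apart. The receptor gene Notch1 was 72.1 and 45.9 CPM (-0.64), the feedback regulator Nrarp 42.1 and 24.8 CPM (-0.74), and the clock glycosyltransferase Lfng 6.59 and 2.75 CPM (-1.02, -2.37 to -0.31). Hes7 and Dll1 had ratios of -0.42 (-0.54 to -0.30) and -0.55 (-0.72 to -0.40), short of 1.5-fold. These directions did not hold in every smaller set of members: the ratio of Hes7 was 0.039 when the gate was applied after thinning (127 and 39 cells), and that of Dll1 was 0.36 in the 55 and 10 members with Msgn1. Hes1 and Rbpj stood at 0.22 and 0.35. In other cells 7 list genes were lower (background 1.06%), with a median of -0.36. Hes5 was 44.9 and 12.5 CPM in other cells and 87.2 and 22.0 CPM in T and Sox2 cells.

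The lower Hes7 level went with more cells without it. Hes7 had 0 UMIs in 23 of 511 untreated members (4.50%, 2.87 to 6.68) and in 23 of 147 dTAG-13 members (15.6%, 10.2 to 22.5), and at least 5 UMIs in 58.5% and 42.9%. Thinned to 5000 UMIs, Hes7 was detected in 66.7% (62.4 to 70.7) and 59.6% (51.2 to 67.6) of members, and these intervals overlapped. Dll1 was then detected in 45.5% (41.1 to 49.9) and 32.9% (25.3 to 41.1), and Dll3 in 32.9% (28.9 to 37.2) and 19.2% (13.1 to 26.5). For Dll3 the intervals lay apart. In members without Sox2, Dll1 was 220 and 134 CPM and Rspo3 843 and 650 CPM. In members with Sox2, Dll1 was 88.9 and 69.5 CPM and Rspo3 517 and 613 CPM. The direction for Rspo3 thus differed between these subsets, and that difference was not tested.

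WNT and FGF genes stayed near the median of all genes. In the WNT list 0 of 22 genes were higher and 1 lower by 1.5-fold (background 5.78% and 3.71%). Its median was -0.05, against -0.29 in other cells. The WNT targets Axin2, Sp5 and Lef1 had ratios of -0.01, 0.05 and -0.19. Notum, a secreted WNT inhibitor, was the lower gene, at 19.1 and 11.6 CPM (-0.68), and the ligand Wnt3a was 25.8 and 18.2 CPM (-0.48, -0.91 to -0.12). In the FGF list 2 of 20 genes were higher and 1 lower (background as for WNT). Its median was -0.13, against -0.15 in other cells. Fgf8, the main posterior ligand, was 348 and 444 CPM in members, a ratio of 0.35, against a ratio of -0.34 in other cells. Egr1 (4.11 and 7.43 CPM) and Fgf18 (5.74 and 10.5 CPM) were the higher genes, both at low levels. Fgfbp3, a carrier of secreted FGFs, was 17.9 and 8.80 CPM (-0.95).

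The lists of progenitor and Hox genes had medians below 0. Of 12 progenitor genes 0 were higher and 3 lower (background 5.78% and 3.71%). Their median was -0.38, against -0.52 in other cells. Cdx4, a caudal factor of posterior identity, was 115 CPM (109 to 121) and 60.8 CPM (53.0 to 69.4), a ratio of -0.91 (-1.13 to -0.71), and was found in 42.5% and 23.8% of members. Its relatives Cdx2 and Cdx1 had ratios of -0.41 and 0.57, so the family was not uniform. Nkx1-2 had a ratio of -0.62 and Hes3 one of -0.61. For Hox groups 1 to 4 the median was -0.29, with 2 of 12 genes lower, and for groups 5 to 9 it was -0.24, with 2 of 15 lower, against the same background of 3.71%. Hoxc6, at 99.6 and 65.5 CPM (-0.60), and Hoxc4, at 32.0 and 19.8 CPM (-0.66), were among these. Hoxb9 and Hoxb8, the most abundant of the trunk Hox genes in these cells, were 468 and 392 CPM and 259 and 255 CPM. In other cells 10 and 9 genes of the same lists were lower (background 1.06%), with medians of -0.79 and -0.70. For groups 10 to 13, 5 of 12 genes reached 10 UMIs, and 1 was higher (background 5.78% in members).

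The other genes among the 12 lowest were of mixed function. They were Mex3b (an RNA-binding protein, 40.3 and 17.6 CPM, -1.15), Hist1h2ap (a histone gene with near-identical copies, so its counts are uncertain, 44.5 and 19.8 CPM), Enc1 (32.0 and 15.1 CPM), Nes (an intermediate filament of progenitors, 56.8 and 30.8 CPM), Acta2 (a smooth muscle actin, 27.8 and 15.1 CPM), Crabp2 (a retinoic acid carrier, 164 and 92.7 CPM) and Lmo2 (45.5 and 26.1 CPM). Hoxb5os, an antisense transcript within the Hoxb cluster that cannot be told apart from overlapping genes without strand, was 341 and 191 CPM. Mex3b was in 57.7% of untreated and 31.3% of dTAG-13 members.

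Part of the genes of bone morphogenetic protein (BMP) signalling were higher. Of 16 list genes 7 (Id1, Id2, Id4, Msx1, Bmp2, Nog and Bmper) were higher by 1.5-fold and 0 lower (background 5.78% and 3.71%), with a median of 0.54. Id1, a BMP-induced antagonist of basic helix-loop-helix proteins, was 114 CPM (109 to 120) in untreated and 228 CPM (213 to 244) in dTAG-13 members, a ratio of 0.99 (0.87 to 1.12). Msx1, a homeobox target, was 76.9 CPM (72.2 to 81.8) and 153 CPM (140 to 166), a ratio of 0.98 (0.84 to 1.14). The levels of both lay apart between the libraries. Id2 was 43.5 and 68.8 CPM (0.65) and Id3 131 and 190 CPM (0.53, short of 1.5-fold). The ligand Bmp2 and the BMP antagonist Nog were higher but below 6 CPM in both libraries. In other cells 0 list genes were higher (background 2.56%) and the median was 0.24, and Id1 and Msx1 had ratios of 0.44 and 0.52. In the nearest gates, Id1 was 48.0 and 146 CPM in anterior cells and 82.9 and 143 CPM in somite cells. In T and Sox2 cells Id1 was 91.4 and 133 CPM. Msx1 was 92.9 and 166 CPM in T and Sox2 cells, 11.4 and 22.9 CPM in somite cells and 18.7 and 18.8 CPM in anterior cells. With dTAG-13, Id1 was thus also higher in each of these gates, and Msx1 in all but the anterior cells. The difference between members and other cells was not tested. Thinned to 5000 UMIs, Id1 was found in 35.3% (31.1 to 39.6) and 47.9% (39.6 to 56.4) of members, and Msx1 in 23.7% (20.1 to 27.7) and 43.8% (35.6 to 52.3). Somite cells gave 3.35% and 7.57% for Msx1.

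Of 7 measured genes of the Nodal pathway 3 were higher (background 5.78%), with a median of 0.55. The ligand gene Gdf11 had UMIs in 48.7% and 48.3% of members and the receptor gene Acvr2b in 79.1% and 76.9%. Lefty1, an inhibitor of Nodal, had the highest ratio of the 5894 genes compared, 3.23 (3.05 to 3.80), from 6.28 to 67.1 CPM. It was detected in 3.91% and 8.84% of members, and 5 cells held 96.7% of its dTAG-13 UMIs. Likewise 5 cells held 80.4% of the dTAG-13 UMIs of Lhx1, a homeobox gene of node and streak (4.96 and 26.7 CPM), and 67.7% of those of Rhox5 (16.8 and 55.3 CPM). After thinning the ratio of Lefty1 was 0.45.

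Among factors of presomitic identity, Mesp1, which marks early mesoderm, was 11.8 CPM (9.99 to 13.8) and 31.4 CPM (25.9 to 37.7), a ratio of 1.34 (1.05 to 1.77). It was the 1 higher gene of 15 on that list, and 2 were lower (background 5.78% and 3.71%). The median of the list was 0.16 in members and -0.42 in other cells. Aldh1a2 was 30.1 and 51.2 CPM, a ratio of 0.75 (0.51 to 1.02), and was seen in 18.0% and 22.4% of members. With at most 5% mitochondrial UMIs its ratio was -0.17, and 5 cells held 43.0% of its dTAG-13 UMIs in the main set of members. Its breakdown counterpart Cyp26a1, which clears retinoic acid from the posterior tissue, was 31.7 and 30.0 CPM. Mesenchymal genes gave a median of -0.05 over 18 genes in members and -0.41 in other cells. In members 1 was higher (Zeb2) and 2 were lower, against the same background. Vim, a mesenchymal filament, was 146 and 92.7 CPM (-0.65), while Cdh2, Fn1 and Snai1 had ratios of -0.29, 0.08 and -0.21. The adhesion and morphogenesis list had 2 higher and 2 lower genes of 15 against the same background, with Efna5, an ephrin ligand, at 9.23 and 18.4 CPM (0.93).

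**Figure D5:**
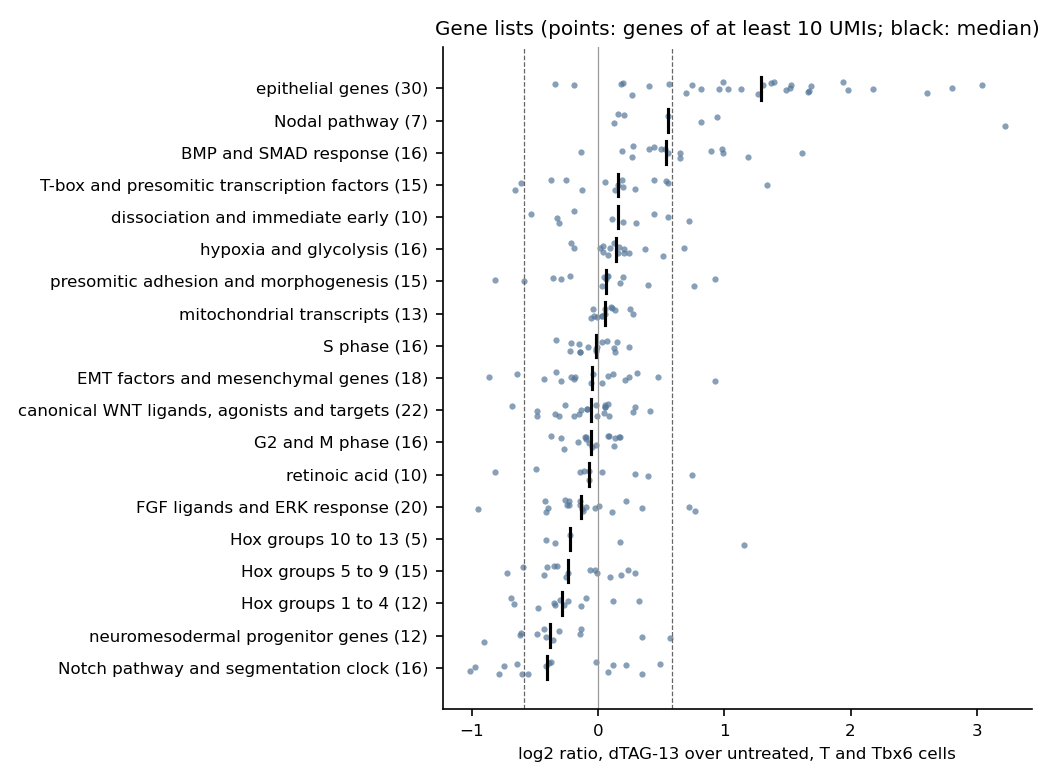
Log2 ratio of dTAG-13 over untreated in T and Tbx6 cells for the genes of 19 lists with at least 10 UMIs (points, number in brackets) and the list median (black). The epithelial list has a median of 1.29, the BMP list 0.54 and the Notch and clock list -0.40.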

How the data were processed

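The values the authors deposited are raw UMI counts per gene and barcode, made with Cell Ranger 6.1.2 on mm10 per the submitters' processing notes. The sources used here do not state whether counting used strand. Counts were read with Python 3.11.15 and scipy 1.17.1. Cells were filtered, gated and summed per library as described above, and scaled to CPM. Doublets stayed in: Scrublet (scanpy 1.11.5) automatically marked 1 and 0 barcodes, too few to be credible, so removal of the highest scores (424 and 496 barcodes) was an alternative. Gene positions are from GENCODE M21 (32235 of 32285 identifiers matched), and 74 of 106 named genes matched a RefSeq promoter. That match left out a chromosome, so named genes there count as unmatched. Named were the markers, the 12 highest and 12 lowest ratios among genes of at least 20 CPM and 50 UMIs without predicted genes (0 and 2 passed over) or genes of the rule, the 12 leading genes, genes that describe variation, and up to 4 of at least 10 CPM per list. Other list genes were named after their values were seen. The members and lists were chosen with earlier results of these data known. The ratio script was tested on simulated data. Alternatives covered doublets, filters, gate depth, thinning, scaling with edgeR 4.0.16 and DESeq2 1.42.0, the prior and the CPM minimum.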

Additional observations from a re-analysis of the deposited data

Results flagged for a closer look

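In 3 of the genes named by the rule, the ratios of the T and Tbx6 cells and of all other cells of the same libraries stood on opposite sides of 0, with both counting intervals clear of 0 and at least 1.5-fold in 1 of the sets. The difference was not tested. Other genes with opposite signs, such as Evx1 (0.54 and -0.42) and Lefty2 (0.55 and -0.46), stayed under 1.5-fold in both. Aldh1a2, the retinoic acid enzyme, had a log2 ratio of dTAG-13 over untreated of 0.75 in members and -0.36 in other cells. Within the other cells its ratio was 0.40 in anterior cells, 0.25 in somite cells and -0.74 in T and Sox2 cells. In the dTAG-13 members, 5 cells held 43.0% of its UMIs. Fgf18, an FGF ligand, had 0.76 in members and -0.67 in other cells. Mesp2, the somite boundary factor, had 1.10 and -0.46, from 3 and 6 UMIs in the members.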

How the results depend on the processing

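No paired analysis was possible because each group is 1 library. The log2 ratio of the share of T and Tbx6 cells was -2.25 with at least 2 UMIs of T and Tbx6 and -2.57 in members with Msgn1, and between -1.82 and -2.06 in the other alternatives. The count of higher and lower genes, 104 and 34, was 212 and 198 with at least 2 UMIs (41 dTAG-13 cells), 296 and 404 in members with Msgn1 (10 cells) and 761 and 488 with no CPM minimum. The lower genes numbered 59 with at most 5% mitochondrial UMIs, 57 in members without Sox2, 148 of 2647 genes after thinning to 5000 UMIs (39 cells, 122 higher) and 19 with a prior of 5 CPM. The share of higher genes among those past 1.5-fold was 75.4%, and 67.4% and 66.9% with edgeR and DESeq2 scaling, 51.7% with at least 2 UMIs, 45.2% after thinning, 42.3% with Msgn1 and 60.9% with no CPM minimum. Other signs are listed only for named genes past 1.5-fold with an interval clear of 0, and for list medians with an interval over their genes clear of 0. They appeared for Aldh1a2 (-0.17, at most 5% mitochondrial UMIs) and for the Nodal list median (-0.23 with at least 2 UMIs and -0.32 after thinning). After thinning they appeared for the hypoxia list median (-0.051), Hoxc4 (0.024), Id2 (-0.013), Lama1 (0.50) and Nes (0.32). In members with Msgn1 they appeared for Efna5 (-0.21) and Rhox5 (-3.09). Named genes nearer 0 also changed sign in alternatives, such as Lefty2, from 0.55 to as low as -2.72. The cause was not tested, but thinning and the Msgn1 and 2-UMI gates leave few cells. Leaving out the top 5% of cells per gene, an alternative chosen after seeing the data, gave 136 and 48 genes and a ratio of 1.60 for Lefty1. With 147 dTAG-13 members, differences in genes of a few CPM are not resolved.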

Other observations

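Cell cycle, stress and mitochondrial genes of the T and Tbx6 cells were described as well. The S phase and the G2 and M phase lists, 16 genes each, had 0 genes at least 1.5-fold higher or lower and medians of -0.02 and -0.06. Aurkb, a mitotic kinase, was 79.2 and 60.8 CPM in untreated and dTAG-13 members. The hypoxia and glycolysis list had a median of 0.14. Gapdh, a glycolytic enzyme, was 546 and 780 CPM, a ratio of 0.52, against 0.60 in other cells, and Eno1, another, was 572 and 492 CPM. The 13 mitochondrial transcripts had a median of 0.05, and the median mitochondrial share of a member was 4.56% and 4.91%. The dissociation list, 10 genes measured, had a median of 0.16, with 1 higher and 0 lower. In the retinoic acid list 1 of 10 genes was higher, 1 lower, and the median was -0.07. Over all 13165 genes of at least 10 UMIs, the background for these lists, 5.78% were higher and 3.71% lower.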
